A study of Mus musculus with 14 samples.

Results

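The BCL2 family survival and death genes described here are 9 mouse genes, chosen by symbol: the survival genes Bcl2, Bcl2l1 and Mcl1, the pore-forming genes Bak1 and Bok, and the BH3-only genes Bcl2l11, Bid, Bad and Bmf. They were measured by 31 of the 45101 probe sets on each array, and all 9 were among the 18194 genes that the arrays represented by a single symbol. Gene expression had been profiled on 14 Affymetrix arrays of biotin-labelled total RNA. Wild-type (WT) embryonic stem cells (ESC) and the WT embryoid bodies (EB) each gave 3 arrays, from the lines B21, J1 and R1. TKO ESC gave 3 arrays, from the lines 7-4-1, Dutch and Ta1-12, and TKO EB gave 5, from those 3 lines and from 2-55-2 and 14-14-4. TKO is the usual short name for cells that lack all 3 genes of the Rb family, which the series' title names, and the labels do not spell it out. Embryoid bodies are aggregates in which stem cells differentiate into mixed tissues, so fewer cells of a type and less RNA per cell cannot be told apart in these arrays. No source used here states the age of the embryoid bodies, and the submitters described the samples of a group as biological replicates.

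BCL2 family proteins decide whether the outer membrane of the mitochondrion stays intact or is opened, which releases cytochrome c and starts the caspase cascade. BCL2, BCL-XL (from Bcl2l1) and MCL1 keep the membrane closed, BAK and BOK form pores in it, and the BH3-only proteins BIM (from Bcl2l11), BID, BAD and BMF are sensors that neutralise the survival proteins or activate the pore formers. MCL1 is known for its short half-life and for its need in the early embryo, and several BH3-only genes are known targets of FoxO, p53 or E2F factors, the last being the factors that Rb family proteins hold in check.

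Promoter sequences are shown for the gene with the largest gain in EB (Bcl2), the gene with the largest loss in WT EB (Bok) and the only member with letters of a FoxO motif (Bcl2l11). Each is the 250 bases before an annotated RNA start in RefSeq (GRCm38.p6), printed 5′ to 3′ along the gene's strand, with motif letters in capitals. The Bcl2 window lies at chr1:106714291-106714540 on the minus strand, the Bok window at chr1:93685325-93685574 on the plus strand and the Bcl2l11 window at chr2:128125788-128126037 on the plus strand. For Bcl2l1 a stretch of 30 bases is given, at chr2:152830844-152830873 on the minus strand, because it holds the only match of an E2F motif among the members.
Bcl2: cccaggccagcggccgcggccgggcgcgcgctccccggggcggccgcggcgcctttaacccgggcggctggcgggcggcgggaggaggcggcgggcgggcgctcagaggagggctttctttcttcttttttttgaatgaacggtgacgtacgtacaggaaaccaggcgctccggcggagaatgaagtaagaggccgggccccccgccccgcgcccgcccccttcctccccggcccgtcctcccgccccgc
Bok: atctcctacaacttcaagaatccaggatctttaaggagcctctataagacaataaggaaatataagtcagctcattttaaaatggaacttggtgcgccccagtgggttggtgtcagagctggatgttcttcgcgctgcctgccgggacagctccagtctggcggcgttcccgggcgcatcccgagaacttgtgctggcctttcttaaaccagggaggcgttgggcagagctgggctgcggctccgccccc
Bcl2l11: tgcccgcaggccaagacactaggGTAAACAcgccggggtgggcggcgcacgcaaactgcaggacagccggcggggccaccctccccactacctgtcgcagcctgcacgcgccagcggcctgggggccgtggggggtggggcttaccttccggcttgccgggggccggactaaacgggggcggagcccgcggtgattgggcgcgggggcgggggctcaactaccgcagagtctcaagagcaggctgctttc
Bcl2l1: tccgcgtccctGCGCGAAAccttgagattc

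All 9 members matched the promoter table, through 15 windows, and both strands of each window were searched. The E2F motif was spelled as TTTGGCGC, TTTCGCGC or TTTCCCGC, and 1.53% of the 32851 windows of all genes held one of these. Among the members it was found in 1 of 3 windows of Bcl2l1, as TTTCGCGC on the strand opposite to the gene, and the capitals above show its reverse complement. The FoxO motif was spelled as GTAAACA, and 3.17% of all windows held it. Among the members it was found once, in Bcl2l11, with its first base 227 bases before the start. The window of Bcl2 held 36 CpG dinucleotides at a GC content of 74.8%, that of Bcl2l11 held 24 at 72%, and that of Bok held 12 at 55.2%. Over all windows the median was 6 CpG dinucleotides and a GC content of 52.4%. These matches are letters in a window and were not tested as sites.

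Values are the deposited linear intensities, with no unit of their own. A log2 difference was computed from intensities raised to a floor of 32, and a gene stands for its probe set with the highest mean. A gene was called changed when limma's adjusted p (Benjamini-Hochberg over 14365 genes in a comparison) was below 0.05. Errors are standard errors (SE) of the fit for differences, and standard deviations (SD) of log2 intensity for levels. Of the 31 member probe sets 30 passed the filter on low intensity, and the other, 1 of 4 for Bcl2l1, stayed between 9.7 and 35.0.

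Before the members, the arrays themselves were compared with their labels. The median intensity of an array ranged from 83.2 to 107.9. Pou5f1, the defining transcription factor of pluripotent cells, ranged from 9879.8 to 12950.1 in the 6 ESC arrays and from 32.8 to 55.2 in the WT EB arrays. In the TKO EB arrays Pou5f1 was 6132.8 in 14-14-4, 1542.2 in 2-55-2, 146.8 in 7-4-1, 7410.3 in Dutch and 17.1 in Ta1-12, so that 14-14-4 and Dutch stood nearest to ESC. The mean log2 level of 10 pluripotent markers was 12.09 in TKO EB 14-14-4 and 12.53 in TKO EB Dutch, where ESC ranged from 12.45 to 13.03 and WT EB from 6.66 to 7.31. Of 7 lists of differentiated cells, 3 had higher means in every EB array than in every ESC array: the mean of 8 fibroblast markers was 5.44 to 6.09 in ESC and 11.33 to 13.76 in EB, and that of 8 macrophage and blood markers was 6.10 to 6.37 in ESC and 6.74 to 11.04 in EB, and that of 6 visceral endoderm markers was 5.31 to 6.57 and 9.61 to 12.58. The cardiac mean was 5.79 to 6.68 in ESC and 6.30 to 11.92 in EB, with 14-14-4 alone inside the ESC range, and the endothelial (6.36 to 9.06 in EB), neural (6.40 to 10.39) and erythroid (5.34 to 7.09) means overlapped those of ESC. Ptprc, Lyz2 and Fcer1g, of the macrophage and blood list, were at the floor in every ESC array. Rbl1, one of the Rb family genes, was 24.5 and 250.3 in the TKO ESC arrays 7-4-1 and Dutch, but 492.5 in that labelled Ta1-12, where WT arrays ranged from 355.6 to 1089.6. In TKO EB it was 15.9 in 14-14-4, 31.7 in 2-55-2 and 38.3 in 7-4-1, but 377.1 in Dutch, within the WT range, and 1095.9 in Ta1-12, above it. The other family genes overlapped between the genotypes, with Rb1 at 115.9 to 912.8 in TKO and 138.0 to 1018.4 in WT, and Rbl2 at 296.8 to 1098.7 and 411.1 to 1726.9. No source used here says whether these probe sets lie in the deleted parts, so they do not test the labels, and results are given with and without the Ta1-12 arrays where the call changed.

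The first question was how the family changed when stem cells became embryoid bodies. In WT cells Bcl2, Bcl2l1, Bad and Bmf rose and Bid and Bok fell, so 6 of 9 members were called, where 43.6% of all genes tested were called. Of all genes, 26.2% were called higher (4 members) and 17.4% lower (2 members). In TKO cells Bcl2, Bcl2l1, Bcl2l11 and Bmf rose and Bid and Bak1 fell, again 6 of 9 members, where 35.7% of all genes were called, 20.8% higher and 14.9% lower. Bcl2, Bcl2l1, Bmf and Bid were called in the same direction in both genotypes. The median log2 difference of the 9 members was 0.44 in WT and 0.47 in TKO, and that of all genes tested was 0.131 and 0.084. The WT groups did not overlap for 7 members, against 60.2% of all genes, and the TKO groups for 6, against 35.7%. A family share above that of all genes was therefore seen in both genotypes, over 9 genes that were not drawn at random. Quantile normalization moved the median of all genes in WT to -0.072 and the calls from 3767 higher and 2493 lower to 3025 higher and 3478 lower; with it, Bcl2l1 (adjusted p = 0.0534) and Bad (0.0696) were no longer called in WT and Bak1 was called lower (0.0368). The same lines were grown at both stages, so each fit was repeated with the line as a block over the 12 arrays of paired lines. With that block 2 of 9 members were called in WT (Bid and Bok) and 2 in TKO (Bcl2 and Bid), against 37.4% and 22% of all genes, so the members' share was then not above that of all genes in WT and close to it in TKO.

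**Figure D1:**
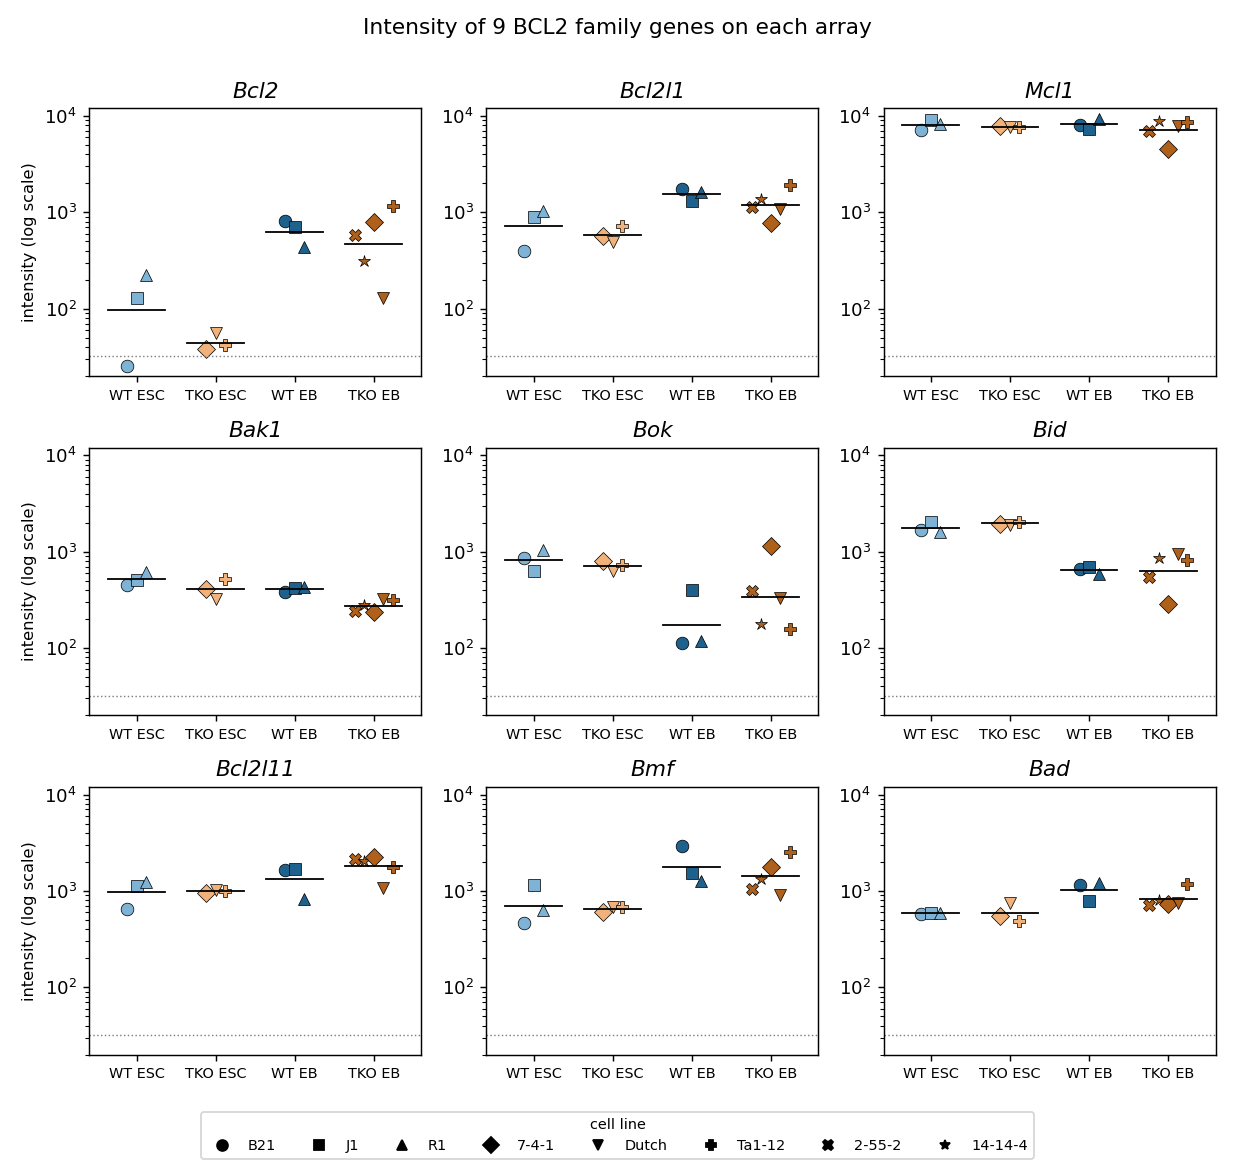
Deposited intensity (log axis) of the 9 members' probe sets in each of the 14 arrays, by group (WT ESC, TKO ESC, WT EB, TKO EB); each point is an array, bars are group means of log2 intensity and the dotted line is the floor of 32. Bcl2 lies between 25.7 and 224.9 in the 6 ESC arrays and between 129.4 and 1166.3 in the 8 EB arrays, while Mcl1 lies between 4509.4 and 9333.3 in all of them.

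Among the survival genes, Bcl2 itself, which guards long-lived and differentiating cells, had the largest rise. Its intensity in WT ESC was 25.7 in B21, 129.9 in J1 and 224.9 in R1, and in TKO ESC 37.9 in 7-4-1, 55.7 in Dutch and 41.7 in Ta1-12. In WT EB it was 810.5 in B21, 701.9 in J1 and 434.6 in R1, and in TKO EB 313.0 in 14-14-4, 576.7 in 2-55-2, 800.5 in 7-4-1, 129.4 in Dutch and 1166.3 in Ta1-12. Every EB array lay above every ESC array of its genotype, and the EB of Dutch was the lowest EB array. The rise was 6.42-fold in WT (log2 2.68 ± 0.77 SE, limma adjusted p = 0.0144) and 10.5-fold in TKO (3.39 ± 0.69, adjusted p = 0.00283). The ESC values are low: 1 of 3 WT and 2 of 3 TKO ESC arrays lay below their array's 40th percentile. The size of the rise depended on the probe set, and 1 further probe set was called in WT (2.23 ± 0.61) and 2 in TKO (2.33 ± 0.54 and 1.17 ± 0.28). The one at 2.23 and 2.33 read 22.7 to 28.6 in TKO ESC, under the floor, so its TKO sign was fixed beforehand. The one at 1.17 read 31.7 to 35.2 in TKO ESC, near the floor. In both, WT ESC R1 was the only ESC array above its 40th percentile, so they passed the filter mainly through EB arrays. Probe sets that were not called gave 0.55, 0.20 and 0.56 in WT and 0.40 and 0.53 in TKO. The one at 0.56 and 0.53 passed the filter through EB arrays alone, with all 6 ESC arrays under the floor, so its sign was fixed beforehand. With the mean of all probe sets the rise was 1.25 in WT (adjusted p = 0.0331) and 1.56 in TKO (0.00809). With the line as a block the WT value was 2.68 with adjusted p = 0.0508; it was 0.0506 without WT EB B21 and 0.0673 without WT ESC B21, the array below the floor, where the log2 difference was 1.88. In TKO the call was kept in 27 of 27 alternative fits (adjusted p from 0.000242 to 0.0351).

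Bcl2l1 encodes BCL-XL, the survival protein on which blood and nerve cells depend. Its WT ESC values were 398.4 in B21, 888.7 in J1 and 1044.7 in R1, and its TKO ESC values 570.9 in 7-4-1, 489.1 in Dutch and 719.8 in Ta1-12. In WT EB it reached 1729.9 in B21, 1313.7 in J1 and 1616.4 in R1, and in TKO EB 1367.0 in 14-14-4, 1128.0 in 2-55-2, 779.0 in 7-4-1, 1095.2 in Dutch and 1916.7 in Ta1-12. Neither genotype's EB overlapped its ESC, although TKO EB 7-4-1 came close to the highest TKO ESC array. The rise was 2.15-fold in WT (log2 1.10 ± 0.36, adjusted p = 0.0273) and 2.05-fold in TKO (1.04 ± 0.33, adjusted p = 0.0258). The other 2 probe sets that passed the filter gave smaller positive differences, 0.73 and 0.74 in WT and 0.48 and 0.62 in TKO, and were not called. The line block gave adjusted p = 0.0508 in WT and 0.0875 in TKO, and in TKO it was 0.0633 without both Ta1-12 arrays and 0.0516 without EB Dutch and 14-14-4. The call was also lost in WT without EB B21 (0.0826), EB R1 (0.0639) or ESC B21 (0.121, with log2 0.68), and in TKO without ESC 7-4-1 (0.0750) or ESC Dutch (0.101).

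Mcl1, the survival gene with the short-lived protein, was near the same intensity in all groups. Its group mean was 12.99 ± 0.17 (SD, log2, n = 3) in WT ESC, 12.92 ± 0.01 (n = 3) in TKO ESC, 13.00 ± 0.18 (n = 3) in WT EB and 12.82 ± 0.40 (n = 5) in TKO EB. The difference between EB and ESC was 0.02 ± 0.21 in WT (95% interval -0.43 to 0.47, adjusted p = 0.954) and -0.10 ± 0.19 in TKO (-0.51 to 0.30, adjusted p = 0.692). The other 5 probe sets of Mcl1 all had negative differences, from -0.29 to -0.68 in WT and from -0.17 to -0.63 in TKO, and none was called. The sign of the WT difference therefore depended on the probe set, and it turned to -0.06 with quantile normalization. The widest group was TKO EB, where 8965.7 was read in 14-14-4, 7003.7 in 2-55-2, 4509.4 in 7-4-1, 7885.2 in Dutch and 8751.1 in Ta1-12. The array of 7-4-1 was the lowest of the 14 in all 6 Mcl1 probe sets.

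The pore formers, whose proteins perforate the mitochondrial membrane, were each called lower in 1 genotype, Bak1 in TKO and Bok in WT. Bak1 was 447.4 in B21, 511.1 in J1 and 608.5 in R1 in WT ESC, and 406.5 in 7-4-1, 324.5 in Dutch and 514.9 in Ta1-12 in TKO ESC. In WT EB it was 379.5, 423.4 and 426.4 in the same order of lines, and in TKO EB 279.1 in 14-14-4, 242.6 in 2-55-2, 234.6 in 7-4-1, 319.4 in Dutch and 315.1 in Ta1-12. On this probe set the TKO EB arrays lay below all other arrays, with the highest of them at 319.4 and TKO ESC Dutch next at 324.5. In TKO the fall was to 0.676 of the ESC level (log2 -0.56 ± 0.19, adjusted p = 0.0375), and a further Bak1 probe set gave -0.88 ± 0.19 (adjusted p = 0.00365 over all probe sets). The name of that further probe set marks it as able to match several transcripts. It read 64.2 to 77.2 in TKO EB, where the arrays' 40th percentiles were 53.6 to 60.8. In WT the difference was -0.34 ± 0.22 (adjusted p = 0.215) and was not called. The TKO call was lost with the line block (adjusted p = 0.165), without both Ta1-12 arrays (0.160), and on leaving out TKO EB 2-55-2 (0.0767), 14-14-4 (0.0550) or 7-4-1 (0.0704), TKO ESC 7-4-1 (0.0938) or Ta1-12 (0.187), or WT ESC J1 (0.0526).

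Bok, a relative of BAK that can act without BH3-only proteins, had the largest fall of the family in WT. In WT ESC it was 850.1 in B21, 623.6 in J1 and 1037.5 in R1, and in TKO ESC 796.2 in 7-4-1, 634.2 in Dutch and 731.3 in Ta1-12. WT EB gave 112.0, 397.9 and 117.8 for B21, J1 and R1. TKO EB gave 177.2 in 14-14-4, 393.6 in 2-55-2, 1151.3 in 7-4-1, 331.3 in Dutch and 158.6 in Ta1-12. The WT groups did not overlap, whereas TKO EB 7-4-1 stood above every ESC array and the other 4 TKO EB arrays stood below all of them. In WT Bok fell to 0.212 of its ESC level (log2 -2.24 ± 0.65, adjusted p = 0.0150). In TKO the difference was -1.10 ± 0.58 (adjusted p = 0.158). Without TKO EB 7-4-1 the TKO difference was -1.54 with adjusted p = 0.0220, and the WT call was lost without EB B21 (-1.92, adjusted p = 0.0624) or EB R1 (-1.96, adjusted p = 0.0520). Bok had a single probe set, so this pattern has no second measure on the arrays.

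Of the BH3-only genes, Bid was the only member called in every alternative fit that was run, in both genotypes. Bid links the death receptors to the mitochondrion, being cut by caspase 8. It was 1691.7 in B21, 2031.9 in J1 and 1613.8 in R1 in WT ESC, and 1952.7 in 7-4-1, 1896.2 in Dutch and 2052.7 in Ta1-12 in TKO ESC. In WT EB it was 659.6, 685.7 and 581.9 for B21, J1 and R1, and in TKO EB 851.6 in 14-14-4, 543.6 in 2-55-2, 285.4 in 7-4-1, 936.0 in Dutch and 819.6 in Ta1-12. All 8 EB arrays were below all 6 ESC arrays, and TKO EB 7-4-1 was the lowest in all 3 Bid probe sets. Bid fell to 0.362 of the ESC level in WT (log2 -1.47 ± 0.35, adjusted p = 0.00592) and to 0.322 in TKO (-1.64 ± 0.32, adjusted p = 0.00213). A further probe set gave -1.56 ± 0.31 in WT and -1.82 ± 0.28 in TKO (adjusted p = 0.00221 and 0.000486 over all probe sets). The third gave -0.74 ± 0.30 in WT (adjusted p = 0.0619, not called) and -1.16 ± 0.27 in TKO (0.00538). The gene's call was kept in 27 of 27 alternative fits in each genotype, with adjusted p from 0.000399 to 0.0251 in WT and from 0.000433 to 0.0204 in TKO.

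Bmf, a sensor that is tied to the cytoskeleton until it is released, rose. In WT ESC it was 461.2 in B21, 1146.5 in J1 and 637.7 in R1, and in TKO ESC 597.5 in 7-4-1, 681.9 in Dutch and 678.5 in Ta1-12. In WT EB it was 2952.2, 1518.3 and 1253.4 for the 3 lines, and in TKO EB 1330.1 in 14-14-4, 1058.9 in 2-55-2, 1784.9 in 7-4-1, 916.0 in Dutch and 2519.1 in Ta1-12. No EB array reached down to the ESC arrays of its genotype. The rise was 2.55-fold in WT (log2 1.35 ± 0.42, adjusted p = 0.0210) and 2.18-fold in TKO (1.13 ± 0.38, adjusted p = 0.0340). It rested on 1 of 3 probe sets, whose name marks it as able to match several transcripts. The other 2 gave 0.03 and -0.12 in WT and 0.09 and -0.17 in TKO and were not called. Both read low, at 80.5 to 152.5 and at 39.1 to 77.8 over the 14 arrays. The second of these was above the 40th percentile on only 7 arrays. The WT call was lost with the line block (0.0620) and without EB B21 (0.0978), ESC B21 (0.0902) or ESC R1 (0.0575); the TKO call was lost with the block (0.0915), without both Ta1-12 arrays (0.126), and on leaving out EB 7-4-1 (0.0650), EB Ta1-12 (0.0638), ESC 7-4-1 (0.103), ESC Dutch (0.0797) or ESC Ta1-12 (0.0814).

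Bad, the sensor that growth factor signals silence through phosphorylation, rose in WT on both of its probe sets. The one with the higher mean went from 580.6 to 1150.5 in B21, from 595.3 to 776.9 in J1 and from 593.1 to 1215.5 in R1. In TKO it was 555.9 in 7-4-1, 758.0 in Dutch and 491.6 in Ta1-12 as ESC, and 810.2 in 14-14-4, 706.9 in 2-55-2, 723.9 in 7-4-1, 754.9 in Dutch and 1183.0 in Ta1-12 as EB. The WT groups were separate, while the TKO groups overlapped. The WT rise was 1.74-fold (log2 0.80 ± 0.25, adjusted p = 0.0194) and the TKO difference was 0.47 ± 0.22 (adjusted p = 0.113). The other probe set rose 4.49-fold in WT (2.17 ± 0.33, adjusted p = 0.000567) and 1.91-fold in TKO (0.93 ± 0.30, adjusted p = 0.0274). On that probe set WT EB was 2116.1, 1391.8 and 1409.2, and TKO EB was 866.6 in 14-14-4, 644.6 in 2-55-2, 773.0 in 7-4-1, 512.0 in Dutch and 1541.5 in Ta1-12, so that only Ta1-12 reached the WT EB range; the genotype difference in EB was -0.99 ± 0.30, with adjusted p = 0.330. The WT call on the first probe set was lost with the line block (0.0706) and without EB B21 (0.0696), EB R1 (0.0677) or ESC B21 (0.0518).

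Bcl2l11, which encodes BIM, the sensor that binds all the survival proteins, gave probe sets that opposed each other. On the probe set with the highest mean, WT ESC gave 648.8 in B21, 1126.6 in J1 and 1248.9 in R1, and WT EB 1649.6, 1691.9 and 819.5. TKO ESC gave 945.6 in 7-4-1, 1034.3 in Dutch and 1010.2 in Ta1-12, and TKO EB 2053.3 in 14-14-4, 2121.5 in 2-55-2, 2265.1 in 7-4-1, 1083.3 in Dutch and 1791.1 in Ta1-12. The WT groups overlapped, because EB of R1 was below ESC of R1, and the TKO groups did not. The TKO rise was 1.81-fold (log2 0.86 ± 0.30, adjusted p = 0.0432), and the WT difference was 0.44 ± 0.34 (adjusted p = 0.306). Over the 5 probe sets 2 had positive and 3 had negative WT differences, and one of the latter was called lower (-0.89 ± 0.32, adjusted p = 0.0421 over all probe sets); in TKO 3 were positive and 2 negative. The TKO call was lost with the line block (adjusted p = 0.224), with quantile normalization (0.0695), without both Ta1-12 arrays (0.131) and on leaving out any one TKO array other than EB Dutch, or WT ESC J1 (0.0543 to 0.118), and it was kept in 13 of 27 alternative fits. Leaving out EB R1, the lowest EB array here, gave a WT difference of 0.78 with adjusted p = 0.0755.

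**Figure D2:**
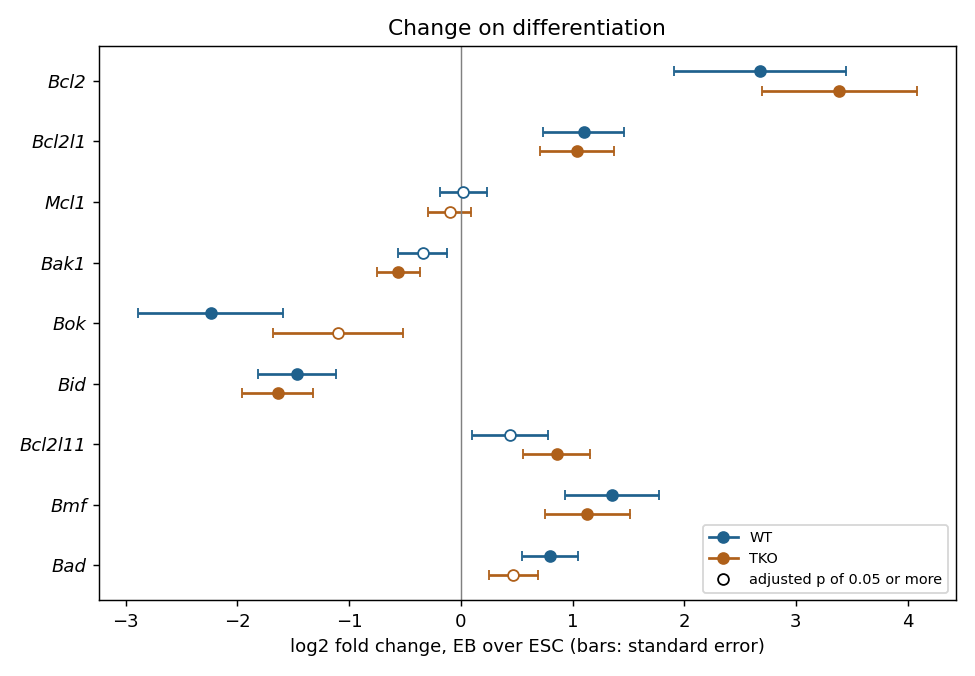
Log2 difference between EB and ESC for the 9 members in WT (blue) and TKO (orange), from the limma fit; lines span 1 SE to each side and open points have an adjusted p of 0.05 or more over 14365 genes. Bcl2 lies farthest to the right, at 2.68 and 3.39, Bid lies left of 0 in both genotypes, and 6 of 9 points are filled in each.

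**Figure D3:**
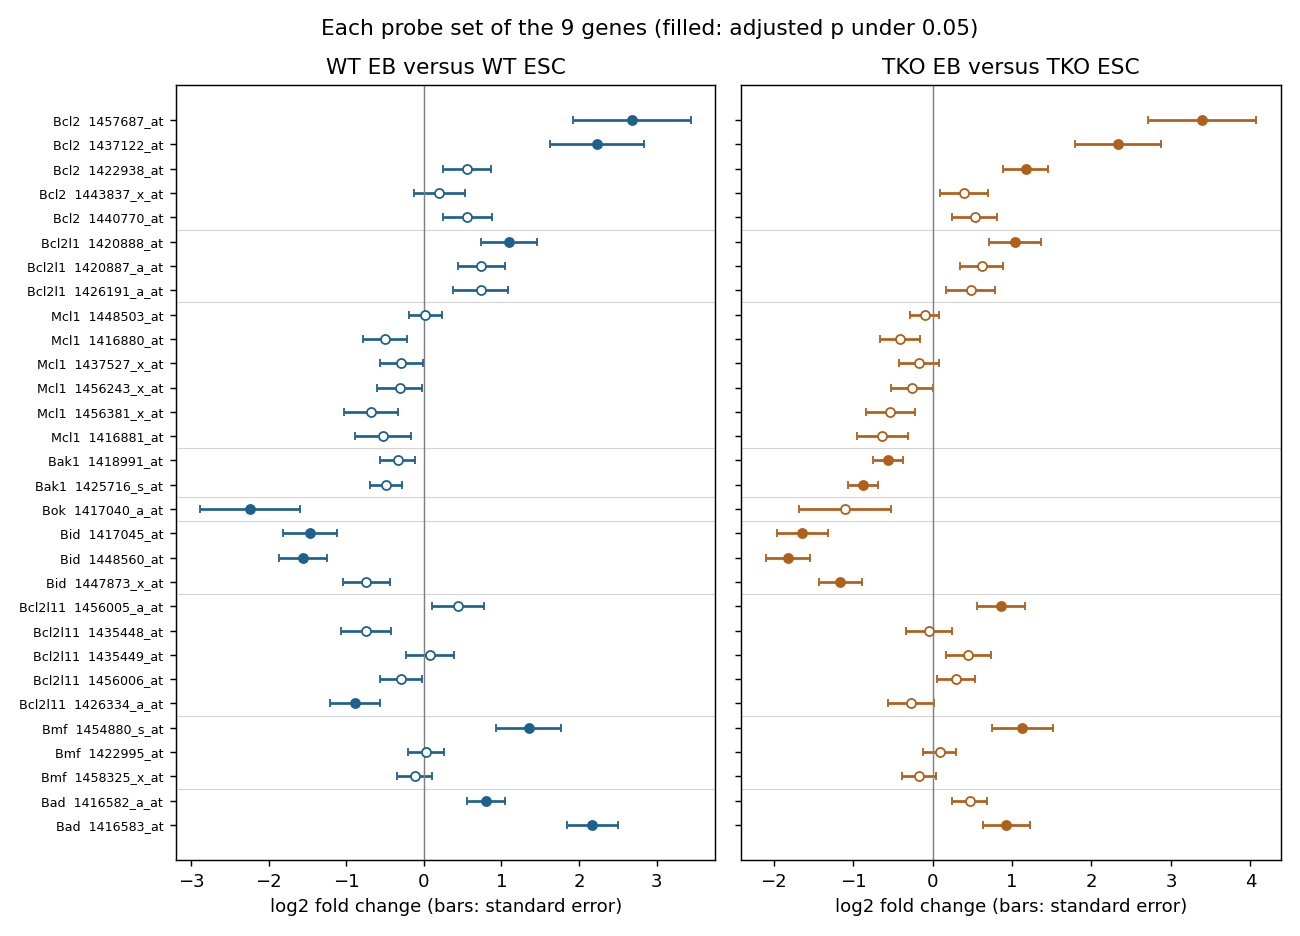
Log2 difference between EB and ESC for each of the 30 member probe sets that passed the filter, in WT and in TKO; points are differences from the limma fit, lines span 1 SE to each side and filled points have an adjusted p below 0.05 over all probe sets. The 3 probe sets of Bid lie left of 0 and those of Bcl2l11 lie on both sides of 0, while those of Bcl2 run from 0.20 to 2.68 in WT; of all probe sets tested 40.3% were called in WT and 35% in TKO.

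The values of single lines show how far these averages stand for each of them. In all 6 lines that were measured at both stages, Bcl2, Bcl2l1 and Bmf were higher and Bid and Bak1 lower in EB. The gain in Bcl2 ranged from 0.95 on the log2 scale in R1 and 1.22 in Dutch to 4.66 in B21 and 4.81 in Ta1-12. The Bid difference lay between -1.02 in Dutch and -2.77 in 7-4-1, and B21, J1 and R1 gave -1.36, -1.57 and -1.47. Bok differed in sign between lines, at -2.92 in B21, -0.65 in J1, -3.14 in R1, -0.94 in Dutch and -2.20 in Ta1-12 but 0.53 in 7-4-1. The line 7-4-1 thus combined the largest loss of Bid, the only gain of Bok and the lowest Mcl1 (difference -0.79). Dutch, whose EB kept Pou5f1, had differences of 0.07 in Bcl2l11, -0.01 in Bad, -0.02 in Bak1 and 0.03 in Mcl1. Its other differences were 1.22 in Bcl2, 1.16 in Bcl2l1, 0.43 in Bmf, -0.94 in Bok and -1.02 in Bid. The EB of 14-14-4 also kept Pou5f1 and had no ESC array of its line. It read 2053.3 in Bcl2l11, where TKO ESC read 945.6 to 1034.3. The part of the remaining pluripotent cells in the Dutch and 14-14-4 values was not tested by itself. With both EB arrays left out, the Bcl2 rise in TKO was 4.19 (adjusted p = 0.000242) and the Bid fall -1.97 (adjusted p = 0.000433). In that fit 5 of 9 members were called, Bcl2l1 being the one lost (1.02, adjusted p = 0.0516). Of all genes 45.3% were then called, against 35.7% in the main fit.

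**Figure D4:**
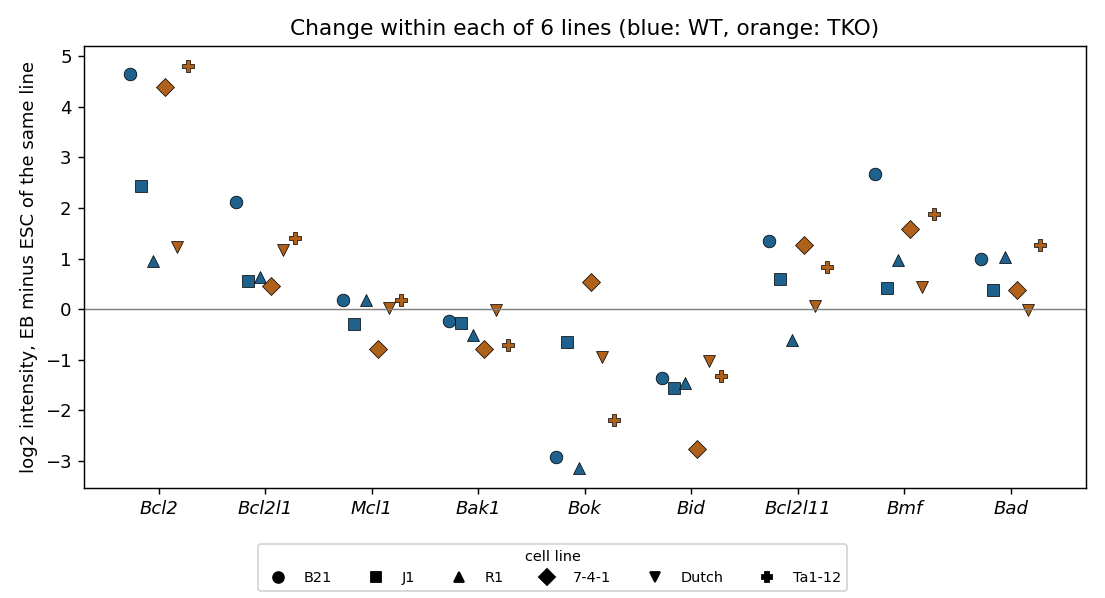
Log2 difference between EB and ESC for each member in the 6 lines measured at both stages (B21, J1 and R1 are WT; 7-4-1, Dutch and Ta1-12 are TKO); each point is 1 EB array minus the ESC array of its line. Bid is below 0 in all 6 lines, and Bok is below 0 in all but 7-4-1, where it is 0.53.

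The next question was whether loss of the Rb family changed these genes or their response to differentiation. No member was called between TKO and WT in ESC or in EB, and no member passed the test of the interaction, the difference between the genotypes in the change on differentiation; each of these comparisons called 0% of all genes tested with limma. Without adjustment, p was below 0.05 for no member in ESC and in the interaction and for 1 member (Bak1) in EB, against 394, 522 and 2034 genes of all tested. In EB, Bak1 was 0.674 of the WT level (log2 -0.57 ± 0.19, 95% interval -0.99 to -0.15, adjusted p = 0.303), and it was the only member whose EB groups did not overlap, against 3.88% of all genes. The further Bak1 probe set gave -0.24 ± 0.19 in EB (limma adjusted p = 0.587 over all probe sets). Its EB groups overlapped, with 77.2 in TKO EB Dutch and 72.7 in WT EB J1. In ESC the groups overlapped for all 9 members, and 11.5% of all genes had groups that did not. The median difference of the members was -0.10 in ESC and -0.32 in EB, and that of all genes was -0.025 and -0.102.

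The intervals show how much these arrays could miss. For Bok the EB difference was 0.95 ± 0.58, with a 95% interval from -0.31 to 2.20 and adjusted p = 0.450, and its interaction was 1.14 ± 0.87, from -0.75 to 3.02. For Bcl2 the interaction was 0.70 ± 1.04, from -1.54 to 2.95, and its TKO ESC difference was -1.14 ± 0.77. Mcl1 had the narrowest intervals, from -0.59 to 0.22 in EB and from -0.72 to 0.48 for the interaction. The EB difference of Bcl2 was -0.43 ± 0.69, from -1.93 to 1.06. The EB differences of Bcl2l1, Bcl2l11, Bid, Bad and Bmf lay between -0.36 ± 0.33 for Bcl2l1 and 0.45 ± 0.30 for Bcl2l11, with Bid at -0.02 ± 0.32. These are values of the probe sets that stand for the genes. Larger EB differences came from a further probe set of Bcl2l11 (0.84 ± 0.29) and of Bad (-0.99 ± 0.30), each with limma adjusted p = 0.33 over all probe sets. All 5 Bcl2l11 probe sets were positive in EB and in the interaction, and none was called. For that Bad probe set the interaction was -1.23 ± 0.45 (adjusted p = 0.966). Without TKO EB Ta1-12 9.5% of all genes were called between TKO EB and WT EB, 472 higher and 883 lower, and none of the 9 members was among them.

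**Figure D5:**
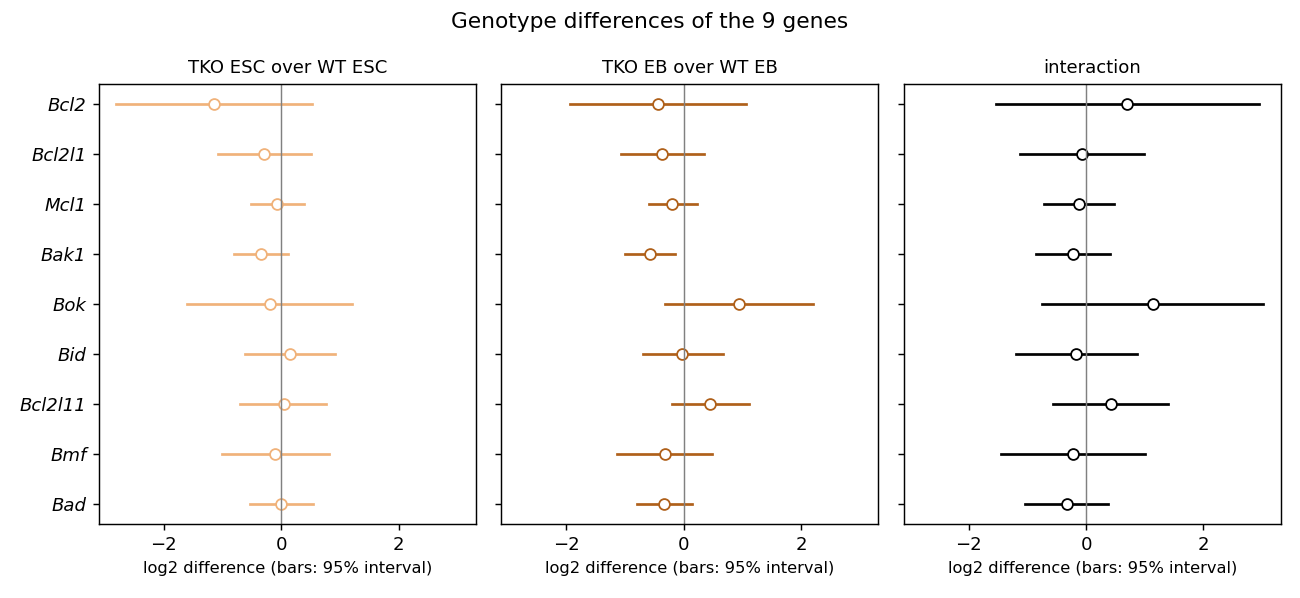
Log2 differences of the 9 members between TKO and WT in ESC (left) and in EB (middle), and the interaction (right); open points are differences from the limma fit and lines span the 95% interval. Bak1 in EB, at -0.57, is the only value whose line does not reach 0, and no value has an adjusted p below 0.05.

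Genes whose levels ran most like a member's over the 14 arrays are given for the 5 members whose intensity spanned more than 4-fold; the arrays share their groups, so Pearson's r is a description. Bcl2, which spanned 36.4-fold, ran with Ifih1 (r = 0.990), Efemp1 (0.982) and Itpkb (0.980). Bok, over 10.3-fold, ran with Chn1 (0.948), Maneal (0.936) and Mgat5b (0.935). Bid, over 7.19-fold, ran with Snhg17 (0.983), Pum3 (0.980) and Atad3a (0.979). Bmf ran with Map3k2 (0.955), Zfp395 (0.951) and Ergic1 (0.951), and Bcl2l1 with Sertad1 (0.967), Wnt4 (0.965) and Cd151 (0.961).

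The rest of the death pathway gives the setting of these changes. Of 16 other BCL2 family genes listed, 9 were tested, and 1 was called: Bbc3, which encodes the BH3-only protein PUMA, fell in WT (log2 -1.14 ± 0.32, adjusted p = 0.0133) and was at -0.45 ± 0.29 in TKO (adjusted p = 0.246). Among all genes tested, 43.6% were called in WT and 35.7% in TKO. Bnip3, a relative known for mitophagy and hypoxia, was at 0.90 ± 0.47 in WT and 0.77 ± 0.42 in TKO, neither called. The survival gene Bcl2l2 was at 0.69 ± 0.36 in WT and -0.16 ± 0.32 in TKO, and neither value was called. The median of these 9 genes was -0.18 in WT and -0.14 in TKO, and the count called in WT ranged from 0, without WT ESC J1 or R1, to 2.

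Downstream of the mitochondrion, 12 genes of the apoptosome and caspases were tested. In WT 3 rose and none fell, and in TKO 4 rose and 1 fell, with list medians of 0.06 and -0.09; the shares called were below the 43.6% of all genes in WT and near the 35.7% in TKO. With the mean of all probe sets 1 gene of the list was called in WT, and in TKO 3 were called with the line block or without ESC Dutch. Apaf1, the scaffold that cytochrome c assembles, rose by 0.62 ± 0.23 (adjusted p = 0.0435) in WT and 0.85 ± 0.20 (0.00683) in TKO. Xiap, an inhibitor of caspases, rose by 0.89 ± 0.21 (0.00503) and 0.79 ± 0.19 (0.00596), and Casp6, an executioner caspase, by 1.27 ± 0.26 (0.00256) and 1.35 ± 0.23 (0.00106). The gene that fell in TKO was Aifm1, a flavoprotein of the mitochondrial intermembrane space, at -0.52 ± 0.14 (0.0129).

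The death receptor arm, which meets the family at Bid, had higher medians: 2.13 in WT and 1.02 in TKO over 7 genes, of which 5 rose in WT, 4 rose in TKO and none fell. Of all genes tested, 43.6% were called in WT (26.2% higher) and 35.7% in TKO (20.8% higher). Fas, a receptor, rose by 2.85 ± 0.47 in WT (adjusted p = 0.000799) and 3.50 ± 0.42 in TKO (0.000125). Tnfrsf1a, the main TNF receptor, rose by 3.03 ± 0.41 (0.000310) and 2.82 ± 0.37 (0.000208). Casp8, the caspase that cuts BID, rose by 2.50 ± 0.43 (0.000990) and 2.60 ± 0.38 (0.000429), while Bid fell in the same arrays. The marker means of fibroblasts and of macrophages and blood, given above, were also higher in every EB array than in every ESC array, and the part of such cells in these values and in those of the members was not tested. In the comparisons of TKO with WT and in the interaction, none of the genes of these 3 lists was called.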

How the data were processed

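The deposited table holds 1 linear intensity per probe set and array, per the file's own values, for 45101 probe sets and 14 arrays; no source used here states how the authors summarised and scaled the arrays. RNA was extracted with Trizol and labelled with biotin, per the labels' protocols. Groups were taken from the sample titles. Probe sets were named from GEO's platform annotation: 34958 had 1 gene symbol, 932 several and 9211 none, and symbols were checked against RefSeq (34754 matched, 0 changed).

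Intensities were raised to a floor of 32 and log2 transformed, without centring, since array medians differed by 0.374 (log2), under a limit of 0.5. Each gene was represented by its probe set with the highest mean, and was tested if above its array's 40th percentile (51.3 to 64.4) on at least 3 arrays, which left 14365 genes. R 4.3.3 and limma 3.58.1 (lmFit, eBayes with trend) fitted 4 group means to all arrays, with 10 residual degrees of freedom and 5 comparisons; the second fit used 31122 probe sets. No 2 arrays were identical. The number of arrays limits the precision. Per the titles each array of a group came from a different line, so the p-values rest on the spread between these lines. The script was tested on simulated data. The members and gene lists were chosen with earlier results of these data known, and the genes named from each list were among the 4 with the smallest adjusted p in a comparison, with Pou5f1 and Rbl1 as checks; Rb1, Rbl2 and Fbxw7 were named after their values were seen.

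The line names pair ESC and EB arrays, per the titles. Deviations of the 2 arrays of a line from their group means correlated at -0.046 in B21, -0.078 in J1, -0.037 in R1, 0.066 in 7-4-1, 0.196 in Dutch and 0.090 in Ta1-12 over genes. Alternatives were other floors, normalizations, filters, probe set rules and eBayes without trend, the line as a block (12 arrays), the Ta1-12 arrays or the Dutch and 14-14-4 EB arrays left out, each array left out, and only the compared groups.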

Additional observations from a re-analysis of the deposited data

Results flagged for a closer look

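Bad in TKO EB was the only member with an array far from the others of its group. The array of Ta1-12 read 1183.0, and its gap to the nearest of the other 4 arrays was 0.735 of the group's whole range, above Dixon's critical value of 0.71 for 5 arrays. All 9 members were examined in this way in that group, and chance passes this limit in about 1 of 20 groups. The groups of 3 arrays were not examined.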

How the results depend on the processing

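The number of members called in WT differentiation (6) was 2 with the line as a replicate block over 12 arrays and ranged from 1 to 6 over single arrays left out: 1 without WT EB B21, 2 without WT ESC B21 and 3 without WT EB R1. The share of all genes called fell in these fits as well, from 43.6% in the main fit to 37.4% with the block. It was 32.2% without WT EB B21, 33% without WT ESC B21 and 39.3% without WT EB R1. In TKO the number of members called (6) was 2 with the replicate block and 2 without the Ta1-12 arrays, and ranged from 2 to 6 over single arrays left out, with 2 without TKO ESC 7-4-1 and 3 without TKO ESC Dutch or Ta1-12. The share of all genes fell from 35.7% to 22% with the block and 21.7% without the Ta1-12 arrays. It was 25.3% without TKO ESC 7-4-1, 25.9% without TKO ESC Dutch and 24.8% without TKO ESC Ta1-12. Mean of all probe sets of a gene gave 4 members in each, where 43.7% of all genes were called in WT and 36.5% in TKO. In the interaction and both genotype comparisons the number of members called was 0 under every alternative run, but hardly any gene was called in most of these fits. The share of all genes was at most 0.182% in the interaction and 0.035% between TKO and WT ESC. Between TKO and WT EB it was 7.62% without both Ta1-12 arrays, 9.5% without TKO EB Ta1-12 and at most 0.0697% otherwise. Where so few genes were called, a count of 0 members tells little about the family. Differences that changed sign were all uncalled. For Mcl1 in WT differentiation they were -0.06 with quantile normalization, -0.19 with centred arrays, -0.38 with the mean of probe sets and -0.53 with the probe set of largest variance, and -0.08 to 0.10 over single arrays left out; in TKO that range was -0.18 to 0.07. Bcl2l11 in WT was -0.28 with the mean of probe sets. In the interaction Bcl2l1 was 0.01 with centred arrays and -0.34 to 0.36 over single arrays left out, Mcl1 was 0.03 with the mean of probe sets (-0.20 to 0.05), Bid ranged from -0.31 to 0.12, and Bmf was 0.02 without TKO EB Dutch and 14-14-4 (-0.59 to 0.14). Between TKO and WT ESC, Bcl2l11 was -0.05 with the mean of probe sets (-0.25 to 0.22), Bak1 was 0.15 with the probe set of largest variance, Mcl1 ranged from -0.15 to 0.01 and Bmf from -0.39 to 0.26. Between TKO and WT EB, Bid was 0.12 with quantile normalization and 0.09 with centred arrays (-0.16 to 0.27), Bcl2 was 0.37 without TKO EB Dutch and 14-14-4 (-0.76 to 0.03) and Bmf ranged from -0.57 to 0.04. Calls were also lost with the mean of probe sets for Bcl2l1 (adjusted p = 0.057 in WT, 0.0803 in TKO), Bmf (0.105, 0.146) and Bcl2l11 (0.382 in TKO), with centred arrays for Bcl2l1 (0.0628) and Bad (0.0703) in WT and Bcl2l11 (0.0542) in TKO, without a filter for Bcl2l11 (0.0652) and Bmf (0.056) in TKO, and with only the compared arrays for Bak1 in TKO (0.0954). The causes were not tested, and the number of arrays limits every one of these values.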

Other observations

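Known regulators of the members, a list not described so far, were called about as often as all genes in WT: of 9 tested genes 4 rose and none fell, where 43.6% of all genes were called. In TKO 5 rose and 1 fell, where 35.7% of all genes were called. The WT count was 2 without EB B21 or any one WT ESC array, fits in which 32.2% to 36.8% of all genes were called. The list medians were 0.45 and 0.49 on the log2 scale. Jun, a transcription factor of stress signalling, rose by 3.72 ± 0.62 in WT (limma adjusted p = 0.000870) and 4.54 ± 0.56 in TKO (0.000145). Akt1, the kinase that phosphorylates BAD and FoxO proteins, rose by 2.56 ± 0.34 (0.000289) and 2.12 ± 0.31 (0.000372). Foxo3, a FoxO factor, rose by 0.63 ± 0.22 (0.0357) and 0.86 ± 0.20 (0.00561), and Ddit3, a factor of the endoplasmic reticulum stress response, by 1.45 ± 0.50 (0.0315) and 1.80 ± 0.44 (0.00772). In TKO E2f1, an E2F factor, rose by 0.49 ± 0.17 (0.0364), and the gene that fell was Fbxw7, at -0.42 ± 0.15 (0.0419), part of a ubiquitin ligase that marks MCL1 for breakdown and named here after its value was seen. None of the 9 was called between the genotypes or in the interaction, where E2f1 was at 0.29 ± 0.25 (adjusted p = 0.975). In the death receptor list Tradd, an adaptor of the TNF receptor, rose by 2.13 ± 0.30 in WT (0.000361) and 1.02 ± 0.27 in TKO (0.0110).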
